A study of Homo sapiens with 6 samples.

Results

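The heterogeneous nuclear ribonucleoproteins (hnRNPs) and the RNA-binding motif (RBM) proteins are described here as the 70 rows, of 19571 in the gene table, whose symbol starts with HNRNP and a letter, starts with RBM and a number, or is RBMX. They comprised 23 HNRNP genes, 37 RBM genes including RBMX, and 10 antisense, readthrough or pseudogene rows that carry the same names. RNA came from LNCaP, a human prostate cancer cell line that responds to androgen, with stable overexpression of Flag-tagged wild-type KDM4B, a histone lysine demethylase, or with the vector alone. There were 3 KDM4B libraries (replicates 1, 2 and 4) and 3 vector libraries (replicates 1, 2 and 3). Every culture had spent its last 3 days in RPMI medium that contained 10% CFBS, a serum whose name the labels do not spell out. The labels do not say whether the replicates were separate cultures or whether each genotype was 1 clone, so the p-values measure only the spread between these libraries. The study asked which splicing events differ genome-wide when KDM4B is overexpressed, and these genes are regulators of splicing whose own transcripts are spliced.

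hnRNPs coat nascent transcripts in the nucleus and mostly bind through RNA recognition motifs, RGG boxes or KH domains. Many of them act on exon choice, often by opposing the SR proteins at silencer elements, and several shuttle to the cytoplasm with mRNA. The RBM symbols group proteins by the RNA recognition motif rather than by function, and include spliceosome components, parts of the exon junction complex, recruiters of the m6A writer and regulators of mRNA decay. Genes of these classes commonly regulate their own transcripts through exons or introns that lead to nonsense-mediated decay.

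Expression was deposited as FPKM (fragments per transcript length and library size), which allow levels to be compared between genes, though no counts lie behind them here and the depth of a value is unknown. The median gene stood at a log2 fold change of -0.22 in the KDM4B libraries as deposited, so each library was divided by its median ratio to the mean library and values below are scaled FPKM unless stated. Fold changes are differences of log2(scaled FPKM + 1), KDM4B over vector, from limma, with Benjamini-Hochberg adjustment over 12148 genes with a mean of at least 1 FPKM. A gene is said to have risen or fallen, or to be called, where the adjusted p was below 0.05. KDM4B itself (gene 23030) measured 29.2, 28.9 and 28.2 scaled FPKM in the KDM4B libraries and 22.8, 23.1 and 23.2 in the vector libraries (log2 fold change 0.31, SE 0.034, adjusted p = 1.93e-05). As deposited the change was 0.07 and was not called (adjusted p = 0.113). Every direction therefore rests on the libraries' labels. Ribosomal RNA genes took 8.14 to 10.5% of the FPKM sum in the KDM4B libraries and 0.144 to 0.473% in the vector libraries, a difference that moves with every comparison below. With the FPKM sum of all other genes made equal instead, 29 members rose and 5 fell. The share of all genes called under that scaling was not counted, so these numbers have no background beside them. The LNCaP markers KLK3, KLK2, TMPRSS2, FOLH1 and HOXB13 were detected in every library, at levels that differed between the groups. KLK3 (log2 fold change -2.08), KLK2 (-2.72) and TMPRSS2 (-2.20) fell, while FOLH1 (0.51) and HOXB13 (0.61) rose. Each was called in the same direction as deposited. Of 13 markers of leukocytes, endothelium, fibroblasts and basal cells, 9 were in the table. Together they summed to 6.64, 5.92 and 6.08 scaled FPKM in the KDM4B libraries and 5.18, 5.36 and 5.76 in the vector libraries, groups that did not overlap; as deposited the sums overlapped, at 5.55 to 6.00 FPKM in the KDM4B libraries and 5.63 to 6.27 in the vector libraries. The collagen gene COL1A1, one of 2 markers tested, rose (0.40, adjusted p = 0.000189), also as deposited (0.22, adjusted p = 0.00589). COL3A1, under the filter, measured 0.476, 0.340 and 0.361 scaled FPKM in the KDM4B libraries and 0.0368, 0.0734 and 0.0734 in the vector libraries. VWF, also under the filter, measured 0.410, 0.457 and 0.438 scaled FPKM in the KDM4B libraries and 0.875, 0.771 and 0.881 in the vector libraries. Neither gene's groups overlapped, while those of the other 6 did, and the part of such markers in the results was not tested.

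Many of the genes stood modestly higher in the KDM4B libraries. Of 63 members tested, 32 rose, 5 fell and 26 were not called, against a background of 34.0% of all genes higher and 34.0% lower. The median log2 fold change was 0.12 for the members and 0.00 for all genes. No change reached 2-fold, and the fold changes ran between -0.38 (HNRNPA1L2) and 0.67 (RBM14) on the log2 scale. In 34 members every KDM4B library was above every vector library and in 5 every one was below (35.8% and 35.9% of all genes). On the FPKM as deposited, 11 members rose and 28 fell (background 13.4% and 60.3%), with a median of -0.11 for the members and -0.22 for all genes. There were 11 members higher and 5 lower on both scales. Another 3 (HNRNPC, HNRNPAB and RBM22) rose on the scaled values but fell as deposited, and 18 more rose on the scaled values only. Summed over all members, scaled FPKM came to 3756, 3768 and 3693 in the KDM4B libraries and 3244, 3195 and 3187 in the vector libraries, without overlap. That separation depends on the scaling, since the groups of summed FPKM as deposited overlapped.

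**Figure D1:**
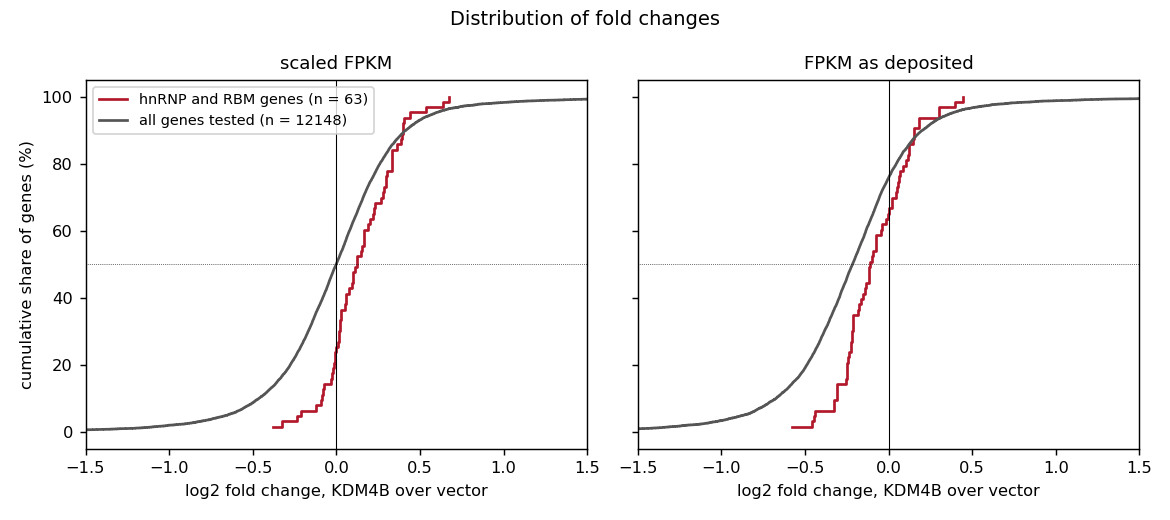
Cumulative share of genes (percent, vertical axis) by log2 fold change, KDM4B over vector (horizontal axis), for the 63 tested hnRNP and RBM genes (red) and all 12148 tested genes (grey), on scaled FPKM (left) and FPKM as deposited (right). The members cross 50% at 0.12 against 0.00 for all genes on the left, and at -0.11 against -0.22 on the right.

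**Figure D2:**
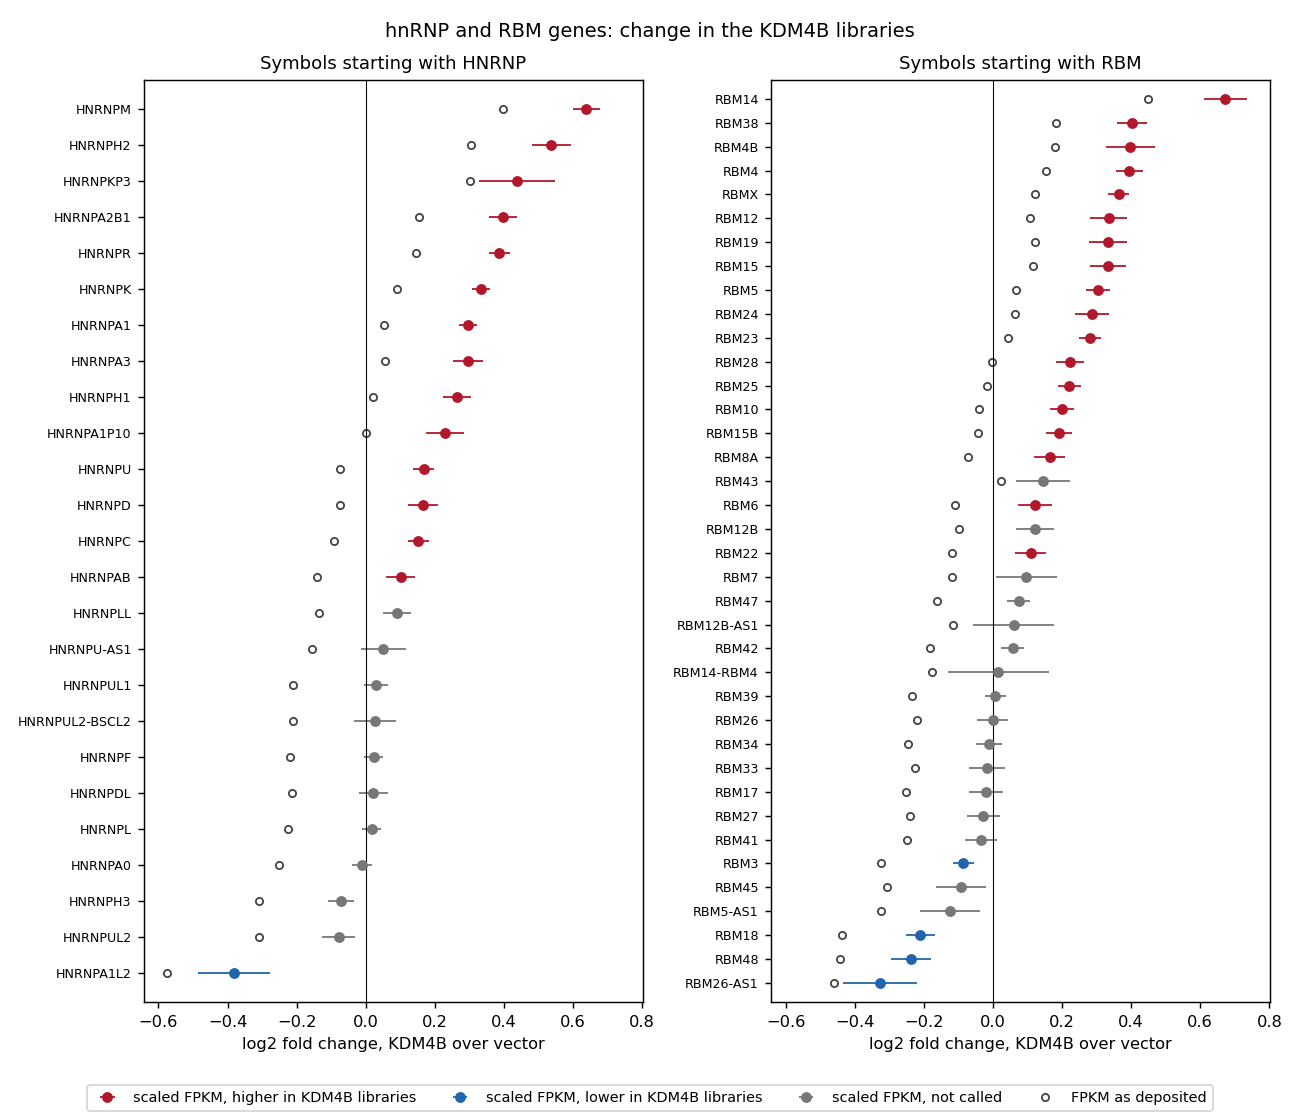
Log2 fold change of each tested member, KDM4B over vector (horizontal axis), on scaled FPKM (filled points with SE; red rose, blue fell, grey not called) and on FPKM as deposited (open points), for HNRNP symbols (left) and RBM symbols (right). The open points lie to the left of the filled ones throughout, and RBM14 and HNRNPM are at the top on both scales.

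The rises were compared with a second readout. The deposited splicing tables give reads per event, and the skipped exon (SE) event with the most reads of a gene was tested as a measure of its expression with edgeR over 8553 genes. Among 47 members with such an event, 22 were called higher and 1 lower (background 22.8% and 22.9%). Of the 26 risen members with an event, 21 were also called higher there and 25 lay above 0; the exception was RBM28, at -0.08. Of the 3 fallen members with an event, only RBM48 was called lower (log2 fold change -0.65, adjusted p = 0.008). Reads of the events come from the same libraries as the FPKM, so they are a second measurement and not a second sample. Their size factors also centre each library on the typical gene. This readout therefore cannot decide between the directions on scaled values and as deposited.

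The hnRNP genes held the highest levels: the 10 members with the most FPKM were all HNRNP genes and were the only members above 100 FPKM on average, while 27 members stayed below 10. HNRNPA1 led with 777 ± 13.4 scaled FPKM in the KDM4B libraries and 632 ± 7.77 in the vector libraries (SD, n = 3 each, as for every mean below). HNRNPK, HNRNPA2B1, HNRNPL, HNRNPC, HNRNPF, HNRNPM, HNRNPH1, HNRNPU and HNRNPD followed. In the KDM4B libraries HNRNPF and HNRNPM were neighbours that did not differ beyond their spread (147 ± 1.34 and 148 ± 7.75), whereas in the vector libraries HNRNPM (94.4 ± 0.787) stood below HNRNPF (145 ± 2.13) and close to HNRNPU (97.5 ± 1.04) and HNRNPD (95.7 ± 6.18). Of the 21 HNRNP genes tested, 12 rose and 1 fell on scaled values (background 34.0% each way). As deposited 5 rose and 11 fell (background 13.4% and 60.3%).

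Among the A/B type hnRNPs, which carry a pair of RNA recognition motifs followed by a glycine-rich tail, 5 of 8 rose and 1 fell (background 34.0% each way), while as deposited 1 rose and 4 fell (background 13.4% and 60.3%). HNRNPA1 (gene 3178), a splicing repressor that binds UAG-containing silencers, had 790.2, 777 and 763 scaled FPKM in the KDM4B libraries and 624, 639 and 635 in the vector libraries. The groups were well apart and the replicates close together (log2 fold change 0.30, SE 0.026, adjusted p = 3.47e-06), although as deposited the change was 0.05 and not called. HNRNPA2B1 (gene 3181), which sorts and transports RNAs and has been described as a reader of m6A, had 242, 245 and 235 scaled FPKM in the KDM4B libraries against 195, 175 and 179 in the vector libraries. Vector replicate 1 was the highest vector library and still lay below every KDM4B library (log2 fold change 0.40, SE 0.041, adjusted p = 1.13e-05), and the rise was also called as deposited (0.16, adjusted p = 0.00826). HNRNPD, or AUF1, which binds AU-rich elements and controls mRNA decay, had 107, 108 and 106 in the KDM4B libraries and 103, 92.1 and 92.2 in the vector libraries. Vector replicate 1 again came nearest to the KDM4B libraries, without reaching them (log2 fold change 0.17, SE 0.043, adjusted p = 0.00593; as deposited -0.08, not called).

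HNRNPA3, a close relative of HNRNPA2B1, averaged 66.4 ± 0.918 scaled FPKM in the KDM4B libraries and 53.99 ± 3.26 in the vector libraries and rose (log2 fold change 0.30, SE 0.043, adjusted p = 0.000151; as deposited 0.06, not called). HNRNPAB passed narrowly (0.10, adjusted p = 0.0496) with overlapping groups, and lost the call when any library other than KDM4B replicate 4 was left out. HNRNPA0, which binds AU-rich elements, and HNRNPDL were not called (-0.01 and 0.02) and fell as deposited (-0.25 and -0.21). HNRNPA1L2, an HNRNPA1-like gene, fell to 4.03, 2.85 and 3.00 scaled FPKM in the KDM4B libraries, against 5.05, 3.97 and 4.70 in the vector libraries, and KDM4B replicate 1 overlapped the vector range (log2 fold change -0.38, SE 0.10, adjusted p = 0.00816). It is near-identical in sequence to HNRNPA1, as are the HNRNPA1 pseudogenes, so how the reads were divided among them is uncertain.

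Of the hnRNPs of other types, 4 of 6 tested rose and 0 fell (background 34.0% each way). As deposited 3 rose and 3 fell (background 13.4% and 60.3%). HNRNPM (gene 4670), which binds GU-rich sequences and is known for splicing changes of the epithelial to mesenchymal transition, had 152, 152 and 139 scaled FPKM in the KDM4B libraries and 95.1, 94.4 and 93.5 in the vector libraries. The lowest KDM4B library, replicate 4, was far above the vector libraries, which agreed closely with each other (log2 fold change 0.64, SE 0.039, adjusted p = 2.36e-07; as deposited 0.40, adjusted p = 7.57e-06). HNRNPK (gene 3190), a poly(C)-binding KH protein with roles in transcription and translation, had 291, 292 and 298 scaled FPKM in the KDM4B libraries against 233, 232 and 233 in the vector libraries. This rise, without overlap, was 0.33 (SE 0.026, adjusted p = 1.46e-06) and 0.09 as deposited (adjusted p = 0.0251). HNRNPR, a relative of SYNCRIP, averaged 74.2 ± 0.451 in the KDM4B libraries and 56.5 ± 0.801 in the vector libraries (log2 fold change 0.39, SE 0.030, adjusted p = 1.27e-06), a rise that was called on both scales.

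HNRNPC, which forms tetramers on uridine tracts and keeps cryptic exons out of transcripts, had 186, 187 and 193 scaled FPKM in the KDM4B libraries and 174, 167 and 168 in the vector libraries. The groups did not overlap and the rise was called (log2 fold change 0.15, SE 0.030, adjusted p = 0.00125), but as deposited HNRNPC fell (-0.09, adjusted p = 0.0338), so its direction depends on the scaling. HNRNPL, which binds CA repeats, had 193, 197 and 192 in the KDM4B libraries against 195, 192 and 189 in the vector libraries and was not called, with overlapping groups and a difference of 0.02 (SE 0.027); as deposited it fell by 0.23 on the log2 scale. Its relative HNRNPLL, known from CD45 splicing in lymphocytes, was not called either (0.09, adjusted p = 0.0717) and fell as deposited (-0.13).

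The F/H type hnRNPs bind runs of guanines, and here the 4 genes differed in their values. HNRNPH2 (gene 3188) had 25.99, 23.7 and 24.3 scaled FPKM in the KDM4B libraries and 15.4, 16.6 and 18 in the vector libraries. The gap between the groups was wider than the spread within either (log2 fold change 0.54, SE 0.056, adjusted p = 1.34e-05), and the rise was called as deposited too (0.30, adjusted p = 0.000375). HNRNPH1, its more abundant paralogue, had 130.4, 133 and 122 in the KDM4B libraries and 109, 108 and 103 in the vector libraries and rose without overlap (log2 fold change 0.26, SE 0.040, adjusted p = 0.000182; as deposited 0.02, not called). HNRNPF had 147, 149 and 146 in the KDM4B libraries and 146, 147 and 143 in the vector libraries, and these overlapped (0.02, SE 0.028, adjusted p = 0.48). HNRNPH3 averaged 32.1 ± 1.22 in the KDM4B libraries and 33.8 ± 0.485 in the vector libraries and was not called on scaled values. HNRNPF and HNRNPH3 both fell as deposited (-0.22 and -0.31). Differences between the 4 genes were not tested, and reads of HNRNPH1 and HNRNPH2, which are near-identical over much of their coding sequence, may have been divided between them.

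HNRNPU, the scaffold attachment factor that binds chromatin-associated RNA, was the one U type gene of 3 to rise (background 34.0%). As deposited HNRNPUL1 and HNRNPUL2 fell (-0.21 and -0.31, background 60.3% lower). HNRNPU had 111, 111 and 107 scaled FPKM in the KDM4B libraries and 98.3, 96.4 and 97.9 in the vector libraries, without overlap (log2 fold change 0.17, SE 0.030, adjusted p = 0.000605; as deposited -0.07, not called). HNRNPUL1 and HNRNPUL2 were not called (0.03 and -0.08).

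**Figure D3:**
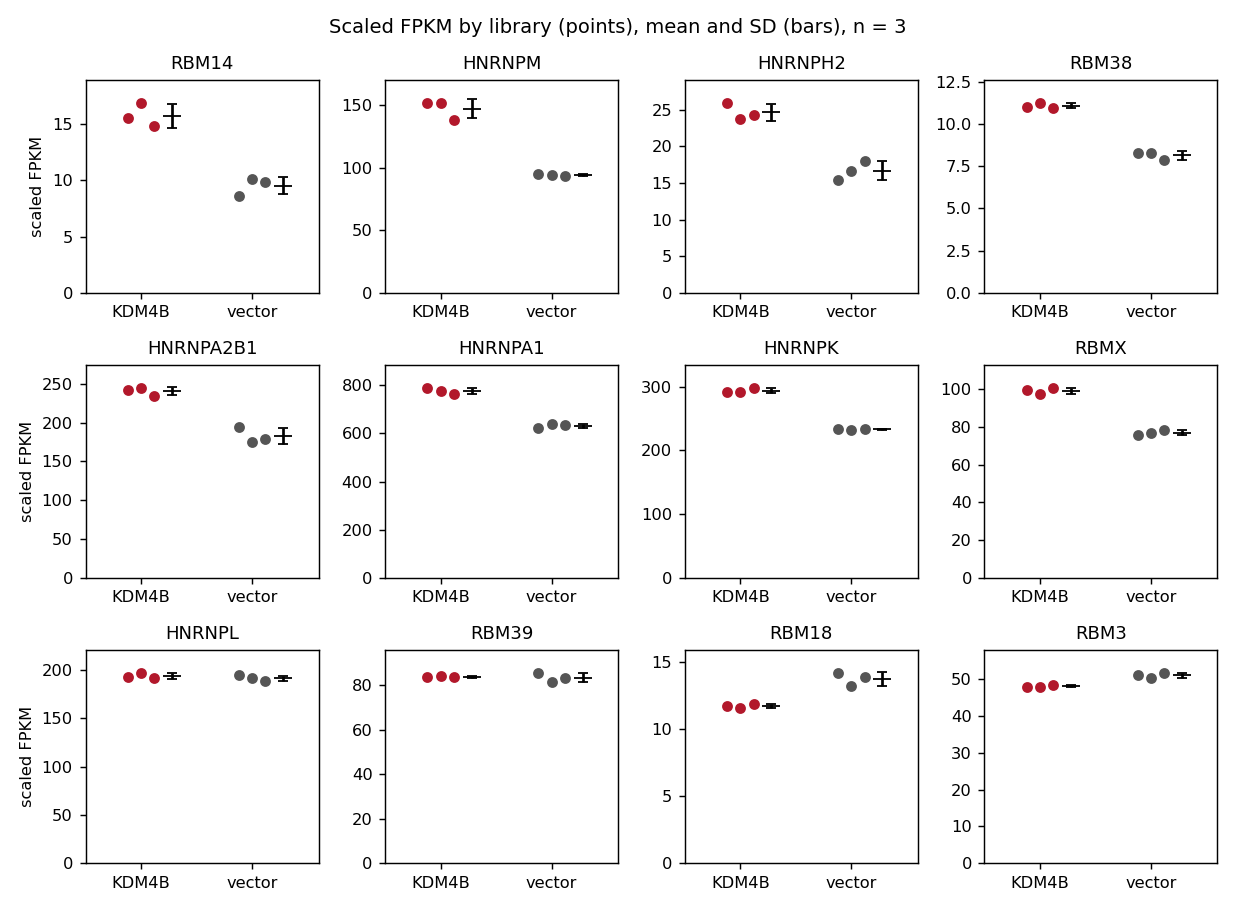
Scaled FPKM (vertical axes, each from 0) of 12 members in the 3 KDM4B libraries (red, left) and the 3 vector libraries (grey, right), with the mean and SD beside the points. RBM14, HNRNPM and HNRNPH2 have KDM4B points well above all vector points, HNRNPL and RBM39 overlap, and RBM18 and RBM3 have KDM4B points below all vector points.

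All 3 genes of the group RBM4, RBM4B and RBM14 rose on both scales (background 34.0% higher on scaled values and 13.4% as deposited). RBM14 (gene 10432), a paraspeckle protein also known as the nuclear receptor coactivator CoAA, had 15.5, 16.9 and 14.8 scaled FPKM in the KDM4B libraries and 8.66, 10.1 and 9.83 in the vector libraries. The lowest KDM4B library was above the highest vector library by several units (log2 fold change 0.67, SE 0.063, adjusted p = 5.97e-06; as deposited 0.45, adjusted p = 0.000107). RBM4, a shuttling protein that acts on exon choice and translation, averaged 88.0 ± 2.37 in the KDM4B libraries and 66.7 ± 3.26 in the vector libraries (log2 fold change 0.40, SE 0.040, adjusted p = 1.03e-05). RBM4B, its close copy, averaged 9.31 ± 0.533 in the KDM4B libraries and 6.85 ± 0.747 in the vector libraries (log2 fold change 0.40, SE 0.070, adjusted p = 0.000553). The readthrough row RBM14-RBM4, which joins RBM14 and RBM4, had 4.93, 3.23 and 2.90 in the KDM4B libraries and 3.66, 4.19 and 2.92 in the vector libraries and was not called (0.02). Reads of RBM14, RBM4 and the readthrough row overlap, so how they were divided is uncertain.

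The promoters of these 3 genes are shown because the genes moved together, beside those of HNRNPM, the largest rise among HNRNP symbols, and RBM18, which fell. The windows are from RefSeq (GRCh38.p14), 250 bases before to 50 bases after an annotated start, and capitals mark CCAAT or its reverse ATTGG. The RBM14 window is chr11:66616380-66616679, plus strand, that of RBM4 chr11:66638453-66638752, plus strand, that of RBM4B chr11:66677838-66678137, minus strand, that of HNRNPM chr19:8444725-8445024, plus strand, and that of RBM18 chr9:122264791-122265090, minus strand.
RBM14: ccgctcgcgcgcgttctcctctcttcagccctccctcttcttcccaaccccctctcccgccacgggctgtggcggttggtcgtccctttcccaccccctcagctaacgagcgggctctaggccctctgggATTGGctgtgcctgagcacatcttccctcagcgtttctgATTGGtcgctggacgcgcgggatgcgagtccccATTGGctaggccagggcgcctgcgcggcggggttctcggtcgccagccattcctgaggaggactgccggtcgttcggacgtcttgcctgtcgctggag
RBM4: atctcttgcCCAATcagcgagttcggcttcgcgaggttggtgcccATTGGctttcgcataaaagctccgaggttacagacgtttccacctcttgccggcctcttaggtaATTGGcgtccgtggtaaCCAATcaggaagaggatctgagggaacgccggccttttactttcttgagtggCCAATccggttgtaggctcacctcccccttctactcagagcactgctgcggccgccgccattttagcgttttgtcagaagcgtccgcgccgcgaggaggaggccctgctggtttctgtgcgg
RBM4B: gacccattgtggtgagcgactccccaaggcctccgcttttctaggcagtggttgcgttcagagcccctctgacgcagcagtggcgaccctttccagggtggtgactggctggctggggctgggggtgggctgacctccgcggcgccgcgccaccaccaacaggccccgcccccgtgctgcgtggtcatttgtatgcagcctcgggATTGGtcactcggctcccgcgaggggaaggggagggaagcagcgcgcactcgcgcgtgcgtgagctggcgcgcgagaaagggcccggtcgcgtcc
HNRNPM: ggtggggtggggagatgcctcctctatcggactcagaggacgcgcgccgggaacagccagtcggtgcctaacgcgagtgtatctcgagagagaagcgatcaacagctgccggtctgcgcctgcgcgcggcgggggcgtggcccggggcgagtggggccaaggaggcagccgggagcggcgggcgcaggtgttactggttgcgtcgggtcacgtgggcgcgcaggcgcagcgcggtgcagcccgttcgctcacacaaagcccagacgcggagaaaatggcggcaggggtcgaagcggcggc
RBM18: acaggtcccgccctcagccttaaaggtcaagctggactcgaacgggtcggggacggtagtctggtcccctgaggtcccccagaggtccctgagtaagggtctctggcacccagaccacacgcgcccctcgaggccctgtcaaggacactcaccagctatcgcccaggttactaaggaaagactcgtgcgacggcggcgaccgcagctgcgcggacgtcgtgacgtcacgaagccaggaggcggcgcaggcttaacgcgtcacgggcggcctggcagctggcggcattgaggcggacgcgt
The letters CCAAT or ATTGG occurred 3 times in the RBM14 window, 5 times in the RBM4 window and 1 time in the RBM4B window, and 0 times in those of HNRNPM and RBM18.

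Over all members, 59 of 70 matched a RefSeq promoter entry, with 74 windows since 9 members had several. CCAAT or ATTGG was found in 42 of the 74 windows (56.8%), against 34.6% of all 35116 windows of the same length. By call, it was found in 23 of 33 windows of risen members (69.7%), 1 of 4 of fallen members (25.0%) and 15 of 32 of members not called (46.9%). The ETS letters CCGGAAG (reverse CTTCCGG) were found in 16.2% of member windows and 10.3% of all windows, and the TATA letters TATAAA (reverse TTTATA) in 9.46% and 11.5%. The median GC content was 63.7% in member windows and 58.7% in all windows. Both strands were searched, CCAAT was picked for display after these counts were seen, windows of 1 gene can overlap, and a match is a description of letters only.

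RBM5, RBM6 and RBM10, related proteins that act on exon choice in transcripts such as that of the death receptor FAS, all rose on scaled values (background 34.0%). As deposited none was called (background 13.4% higher and 60.3% lower), and RBM6 and RBM10 lay below 0 (-0.11 and -0.04). RBM5 had 38.8, 38.6 and 39.7 scaled FPKM in the KDM4B libraries and 31.9, 31.8 and 30.6 in the vector libraries, without overlap (log2 fold change 0.30, SE 0.034, adjusted p = 2.13e-05). RBM10 had 44.6, 43.2 and 42.2 in the KDM4B libraries and 38.01, 37.7 and 37.1 in the vector libraries, again without overlap (log2 fold change 0.20, SE 0.034, adjusted p = 0.000457). RBM6 had 20.05, 22.6 and 21.04 in the KDM4B libraries against 20.01, 19.4 and 18.8 in the vector libraries. Its groups barely parted, and the call (log2 fold change 0.12, SE 0.048, adjusted p = 0.0438) was lost when KDM4B replicate 2 or 4 or vector replicate 2 or 3 was left out, with adjusted p up to 0.168.

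RBM38, a p53 target that stabilises the mRNA of the cell cycle inhibitor p21, had 11.04, 11.3 and 10.97 scaled FPKM in the KDM4B libraries and 8.29, 8.32 and 7.86 in the vector libraries. The 2 sets were tight and apart (log2 fold change 0.40, SE 0.043, adjusted p = 1.46e-05), and the rise was called as deposited (0.18, adjusted p = 0.00471). RBMX, or hnRNP G, a regulator of exon choice encoded on the X chromosome, had 99.3, 97.5 and 101 in the KDM4B libraries and 75.4, 76.9 and 78.1 in the vector libraries, and rose without overlap (log2 fold change 0.36, SE 0.030, adjusted p = 2.25e-06; as deposited 0.12, adjusted p = 0.00686). RBMX has near-identical retrocopies, with which its reads may be shared.

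Both RBM15 and RBM15B, which bring the m6A writer complex to its target transcripts, rose (background 34.0%). RBM15 had 8.59, 8.68 and 8.11 scaled FPKM in the KDM4B libraries and 6.26, 6.92 and 6.37 in the vector libraries, without overlap (log2 fold change 0.33, SE 0.051, adjusted p = 0.000219; as deposited 0.12, not called). RBM15B averaged 30.5 ± 1.06 in the KDM4B libraries and 26.6 ± 0.383 in the vector libraries (0.19, adjusted p = 0.00104; as deposited -0.04, not called). Of 6 partners in the writer complex that were tested, 4 rose and 1 fell (background 34.0% each way), with a median of 0.11. As deposited 1 rose and 4 fell (background 13.4% and 60.3%). METTL14, the RNA-binding partner of the catalytic subunit, averaged 10.1 ± 0.867 in the KDM4B libraries against 7.02 ± 0.284 in the vector libraries (log2 fold change 0.47, SE 0.060, adjusted p = 6.1e-05), and the scaffold ZC3H13 also rose (0.28, adjusted p = 0.000155; as deposited 0.06, not called). CBLL1, also called HAKAI, fell (-0.39, adjusted p = 0.00054).

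RBM8A, the Y14 subunit of the exon junction complex that marks spliced junctions for nonsense-mediated decay, had 36.4, 36.4 and 35.9 scaled FPKM in the KDM4B libraries and 34.5, 30.6 and 31.8 in the vector libraries. Vector replicate 1 came closest to the KDM4B libraries but did not reach them (log2 fold change 0.16, SE 0.044, adjusted p = 0.00771; as deposited -0.07, not called). Its partners had a median of -0.21: of 4 tested, 1 rose and 3 fell, on both scales. The background was 34.0% each way on scaled values, and 13.4% higher and 60.3% lower as deposited. EIF4A3, the helicase that anchors the complex, rose to 54.8 ± 2.99 in the KDM4B libraries against 40.2 ± 0.722 in the vector libraries (log2 fold change 0.44, SE 0.042, adjusted p = 6.82e-06). MAGOH, which forms a heterodimer with RBM8A, averaged 30.3 ± 1.52 in the KDM4B libraries and 37.5 ± 0.699 in the vector libraries and fell (log2 fold change -0.30, SE 0.041, adjusted p = 0.000107). CASC3 and MAGOHB, the second MAGOH gene, fell as well (-0.16 and -0.26).

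Of 6 RBM proteins associated with the spliceosome, 2 rose, 1 fell and 3 were not called, a share of rises close to the background of 34.0%. As deposited 0 rose and 5 fell (background 13.4% and 60.3%). RBM25, which acts on the choice of 5′ splice sites, had 36.2, 37.9 and 36.4 scaled FPKM in the KDM4B libraries and 31.3, 31.7 and 31.3 in the vector libraries, without overlap (log2 fold change 0.22, SE 0.034, adjusted p = 0.000207; as deposited -0.02, not called). RBM39, a U2AF-like splicing factor and coactivator of AP-1 and oestrogen receptors, had 83.6, 84.2 and 83.9 in the KDM4B libraries against 85.7, 81.4 and 83.4 in the vector libraries. The KDM4B values lay within the range of the vector values (0.01, SE 0.031, adjusted p = 0.846), while as deposited RBM39 fell (-0.23, adjusted p = 0.000122). RBM22, a component of the catalytic spliceosome, passed narrowly with overlapping groups (0.11, adjusted p = 0.0494), fell as deposited (-0.12), and lost its call without KDM4B replicate 1 or 4 or vector replicate 2 or 3. RBM17 and RBM42 were not called (-0.02 and 0.06) and fell as deposited (-0.25 and -0.18).

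Of 34 RBM genes tested, 18 rose and 3 fell (background 34.0% each way), and the falls were small. As deposited 5 rose and 14 fell (background 13.4% and 60.3%). RBM48, which takes part in the splicing of minor introns, had 4.91, 4.76 and 5.52 scaled FPKM in the KDM4B libraries and 6.14, 6.29 and 5.98 in the vector libraries. KDM4B replicate 4 was its highest KDM4B library and remained under the vector libraries (log2 fold change -0.24, SE 0.058, adjusted p = 0.0042; as deposited -0.44). RBM18 had 11.8, 11.6 and 11.9 in the KDM4B libraries and 14.2, 13.2 and 13.9 in the vector libraries, without overlap (log2 fold change -0.21, SE 0.042, adjusted p = 0.00118; as deposited -0.44). RBM3, a protein induced by mild cold, had 47.96, 48.05 and 48.4 in the KDM4B libraries against 51.2, 50.4 and 51.8 in the vector libraries. The groups were separate but by a margin that was small beside the level (log2 fold change -0.09, SE 0.030, adjusted p = 0.0282), and the call was lost without KDM4B replicate 1 or 2 or vector replicate 1 or 3 (adjusted p up to 0.084).

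Among the rest of the RBM genes, RBM12 (0.33), RBM19 (0.33), RBM24 (0.29), RBM23 (0.28) and RBM28 (0.22) rose without overlap of the groups, and none of them was called as deposited. RBM19 and RBM28 are nucleolar proteins and RBM24 is known from muscle splicing. RBM47, a cofactor of cytidine deamination by APOBEC1, was not called (0.07, adjusted p = 0.0778) although its groups did not overlap, and it fell as deposited (-0.16). RBM7, part of the nuclear exosome targeting complex, RBM12B, RBM26, RBM27, RBM33, RBM34, RBM41, RBM43 and RBM45 were not called, with fold changes between -0.09 and 0.14. Of these, RBM26 (-0.22), RBM27 (-0.24), RBM33 (-0.22), RBM34 (-0.25), RBM41 (-0.25) and RBM45 (-0.31) fell as deposited, and the others were not called there either.

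Of the 10 antisense, readthrough and pseudogene rows, 8 were tested, 2 rose and 1 fell (background 34.0% each way). The pseudogene row HNRNPKP3 had 1.83, 1.94 and 1.23 scaled FPKM in the KDM4B libraries and 0.829, 1.11 and 0.927 in the vector libraries, without overlap (log2 fold change 0.44, SE 0.11, adjusted p = 0.00504), beside the rise of HNRNPK, with which it shares sequence. HNRNPA1P10 also rose (0.23; near 0 and not called as deposited). RBM26-AS1 had 0.875, 0.978 and 1.11 in the KDM4B libraries and 1.93, 1.20 and 1.39 in the vector libraries. Its fall (log2 fold change -0.33, SE 0.11, adjusted p = 0.0198) was no longer called when replicate 1 of either group was left out (adjusted p up to 0.0743). No source used here says that counting used strand, so reads of an antisense gene and its partner cannot be told apart, and reads of pseudogenes may come from their parent genes.

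The 7 rows under the filter were HNRNPA1P33, HNRNPA3P1, HNRNPCL1, HNRNPCL2, RBM11, RBM20 and RBM44. HNRNPA1P33 was the highest of them, with 0.631, 0.521 and 0.547 scaled FPKM in the KDM4B libraries and 0.378, 0.486 and 0.477 in the vector libraries. RBM20, the regulator of titin splicing in heart muscle, had 0.0886, 0.0744 and 0.0876 in the KDM4B libraries against 0.147, 0.147 and 0.0918 in the vector libraries. HNRNPCL1 was listed at 0 in KDM4B replicate 1 and in all 3 vector libraries.

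Of the hnRNP proteins that carry other symbols, 14 were tested. Of these, 9 rose and 2 fell (background 34.0% each way), with a median of 0.23. PCBP1, a KH protein related to HNRNPK, rose (log2 fold change 0.40, SE 0.029, adjusted p = 8.28e-07). CIRBP, which like RBM3 is induced by cold, fell to 146 ± 8.34 in the KDM4B libraries against 212 ± 2.76 in the vector libraries (log2 fold change -0.54, SE 0.040, adjusted p = 1.05e-06). Of 17 other RNA-binding regulators of splicing, 12 rose and 4 fell (the same background), with a median of 0.18. The lowest p-values there belonged to NOVA1, a neuronal splicing factor (0.80), PUF60, a U2AF-like factor (0.35), and KHDRBS1, or Sam68 (0.30). As deposited, 3 of the 14 rose and 5 fell, and 3 of the 17 rose and 7 fell (background 13.4% and 60.3%).

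The transcripts of these genes also appear in the deposited splicing tables, with 206 SE events in 47 genes, 49 mutually exclusive exon (MXE) events in 19 genes, 11 alternative 5′ splice site (A5SS) events in 9 genes and 6 retained intron (RI) events in 5 genes. Each event has 1 read count per library that joins both of its forms. The forms were recovered where a pair of SE events and an MXE event shared the same flanking exons, and otherwise an event was compared with the SE reads of the rest of its gene, which measures its use within the gene and not the balance of its forms. The build of the event positions is uncertain, since the submitters' processing notes name GRCh38 but the HNRNPA2B1 events lie outside the gene as placed by its RefSeq GRCh38.p14 promoter window (chr7:26200697-26200996, minus strand). Positions are given as in the files, counted from 1. Events of a gene share reads and are not independent of each other.

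Few of these events were called, and for SE and RI events the share was close to that over all events of the type. Of 192 SE events tested in 36 genes, 1 was called (background 0.530%), with 13 at an unadjusted p below 0.05. Of 6 RI events in 5 genes, 1 was called (background 16.0%), and of 9 A5SS events in 8 genes 0 were called (background 4.39%; 0 at an unadjusted p below 0.05 and 0 by DESeq2). Both called events lay in HNRNPA2B1, next to each other and on the minus strand, and they share reads. The gene is known to limit its own expression through splicing of its 3′ untranslated region coupled to nonsense-mediated decay.

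The SE event was an exon of 136 bases at chr7:26230613-26230748 in the coordinates of the files. It had 300, 294 and 292 reads in the KDM4B libraries, against 415, 396 and 420 in the vector libraries. The other SE events of HNRNPA2B1 had 47321, 49473 and 46890 reads in the KDM4B libraries and 44950, 39642 and 40826 in the vector libraries. These are raw reads, and the reads of all SE events summed lower in the KDM4B libraries (14212396 to 14787321, against 16451082 to 17021204 in the vector libraries). The event had fewer raw reads in every KDM4B library while the rest of the gene had more, and the odds ratio below joins both differences. Its share of the gene's SE reads was 0.63, 0.591 and 0.619% in the KDM4B libraries and 0.915, 0.989 and 1.02% in the vector libraries (log2 odds ratio -0.67, edgeR adjusted p = 6.68e-06, and at most 0.000122 with any library left out).

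The RI event was the neighbouring intron of 293 bases at chr7:26230749-26231041, with 273, 294 and 239 reads in the KDM4B libraries and 386, 391 and 348 in the vector libraries. These groups did not overlap either (log2 odds ratio -0.67, edgeR adjusted p = 3.43e-06). An SE event with an exon of 1346 bases, which covers the 136-base exon, the intron and the exon of 917 bases on its other side, had 7059, 7024 and 7436 reads in the KDM4B libraries and 6827, 6008 and 6386 in the vector libraries. That event was not called, and its reads far outnumber those of the RI event, so the RI counts cannot be read as the amount of retained intron. The reads that the authors counted for an event were not given in the sources used here. Besides these events, the remaining 9 SE events of HNRNPA2B1 had log2 odds ratios between -0.04 and 0.12 and none was called. They include the exon of 36 bases known to distinguish the B1 from the A2 protein, with 3353, 3433 and 3076 reads in the KDM4B libraries and 3059, 2866 and 2877 in the vector libraries.

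**Figure D4:**
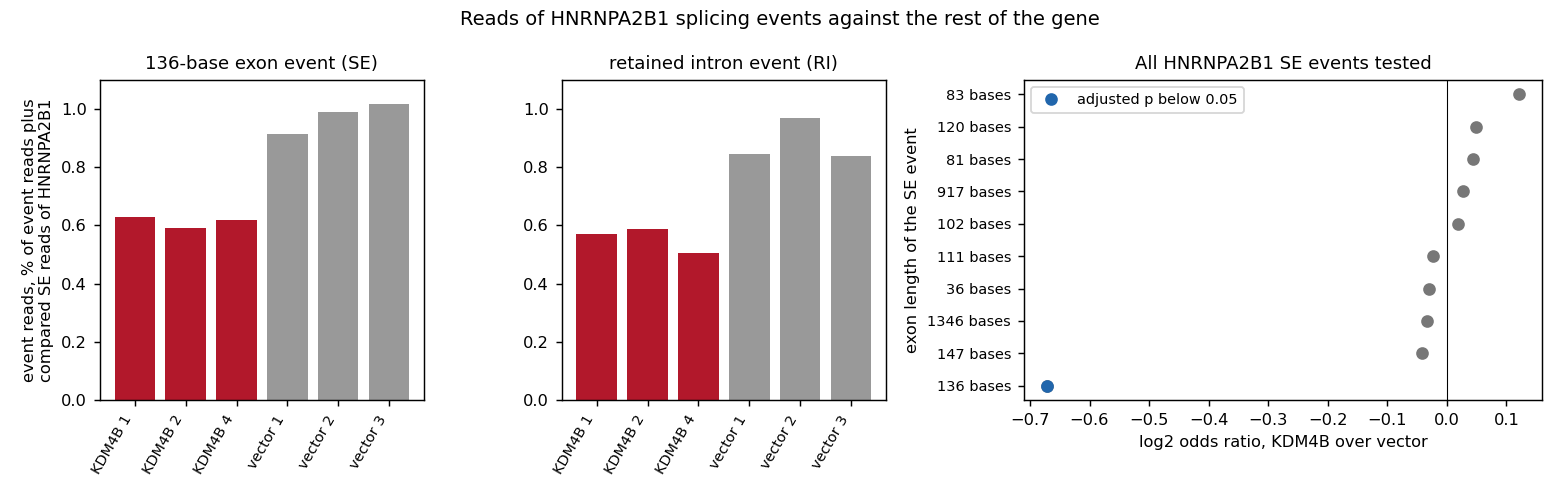
Left and centre, reads of the 136-base exon event and of the retained intron event as a percentage of those reads plus the compared SE reads of HNRNPA2B1 (vertical axes), in the 3 KDM4B (red) and 3 vector (grey) libraries. Right, log2 odds ratio, KDM4B over vector (horizontal axis), of the 10 SE events of the gene by exon length; the 136-base exon is at -0.67 and the other events lie near 0.

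Where the forms of an event could be recovered, none of the members' events was called. Of 22 MXE events in 11 genes 0 were called (background 1.63%; 2 at an unadjusted p below 0.05 and 0 by DESeq2). The lowest p belonged to RBM39, where reads of a 54-base exon at chr20:34317234-34317287 were 361, 384 and 329 in the KDM4B libraries and 373, 370 and 398 in the vector libraries. Reads of the alternative 66-base exon at chr20:34317384-34317449 were 340, 340 and 280 in the KDM4B libraries and 465, 415 and 406 in the vector libraries (log2 odds ratio 0.33, edgeR adjusted p = 0.25). The same 66-base exon had the second lowest p of the SE events of members (log2 odds ratio -0.26, adjusted p = 0.312). In HNRNPM an exon of 78 bases had 136, 152 and 142 reads in the KDM4B libraries and 112, 113 and 154 in the vector libraries, and the alternative exon of 54 bases had 222, 234 and 223 in the KDM4B libraries against 135, 151 and 134 in the vector libraries (log2 odds ratio -0.51, adjusted p = 0.251). The MXE event with the next lowest p was in RBM23 (0.74, adjusted p = 0.53, groups overlapping).

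Of 7 SE events with recovered forms, in RBM6 and RBM23, 0 were called (background 5.50%; 0 at an unadjusted p below 0.05 and 0 by DESeq2). The lowest p was that of a 74-base exon of RBM6, with 24, 24 and 16 inclusion and 11, 9 and 12 skipping reads in the KDM4B libraries, against 20, 22 and 20 inclusion and 16, 18 and 15 skipping reads in the vector libraries (log2 odds ratio 0.64, adjusted p = 0.618). RBM23 exons of 113 and 48 bases followed, with 0 to 5 skipping reads a library. The A5SS events with the lowest p were in RBM10 (log2 odds ratio 0.18, adjusted p = 0.416), HNRNPM (-0.10, adjusted p = 0.449) and RBM10 again (-0.13, adjusted p = 0.682).

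**Figure D5:**
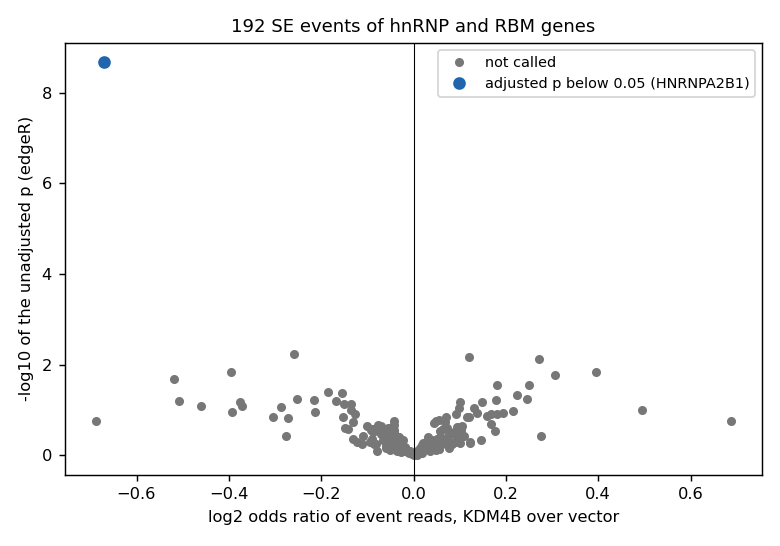
Each point is 1 of 192 SE events of hnRNP and RBM genes, by log2 odds ratio of its reads against the rest of its gene, KDM4B over vector (horizontal axis), and -log10 of the unadjusted p from edgeR (vertical axis). The HNRNPA2B1 exon at -0.67 (blue) is the single called event and stands apart from the rest.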

How the data were processed

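Titles placed 3 RNA-seq libraries in the KDM4B group and 3 in the vector group. The authors deposited FPKM for each gene with 2 decimals and raw read counts for each splicing event. The submitters' processing notes list HISAT, StringTie and Cufflinks but give no role, and the splicing caller was not given in the sources used here. SE event reads summed to 14212396 to 14787321 in KDM4B and 16451082 to 17021204 in vector libraries, which are sums over events that share reads.

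FPKM were divided by median-of-ratios factors (0.903, 0.941 and 0.913 for KDM4B, 1.09 for each vector library) and log2(scaled FPKM + 1) was tested with limma 3.58.1 (R 4.3.3) with a trend, two-sided, where a gene's mean reached 1 FPKM. A pseudocount of 1 understates the change of low genes. Forms were recovered from 3247 sets of SE and MXE events, 2 of them left out; 19478 of 19482 values were exactly even and not negative. Event reads were tested with edgeR 4.0.16 (glmQLFit, with library, form and form by group), at least 10 reads in each library, and DESeq2 1.42.0 as an alternative. Each test was adjusted over all genes, or all events of its type. The limma test and the edgeR tests of MXE forms and of SE and RI use within the gene were checked on simulated data. The other tests were not. Libraries differed beyond sampling noise within groups (chi-square per degree of freedom 2.42 to 2.97) and more between them (28.5 to 33.8), over 8553 events.

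Members and lists were chosen with earlier results of these data known. Values per library were given for the 6 largest rises and the 4 falls without overlap of the groups, for 19 set genes and for a few others picked after their values were seen (HNRNPA1L2, RBM14-RBM4, HNRNPA1P33 and RBM20), and up to 3 genes were named from each other list by lowest p; some genes of those lists are not reported here. Alternatives were other pseudocounts, filters, scalings and tests, a replicate block, and leaving out 1 library at a time; 2 scalings were added after seeing the data.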

Additional observations from a re-analysis of the deposited data

How the results depend on the processing

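The scaling was the choice that mattered most. On FPKM as deposited, 11 members were higher and 28 lower, KDM4B stood at 0.0735 (adjusted p = 0.113), and 26 members lay above 0 scaled but below 0 as deposited (0 the other way), of which HNRNPC, HNRNPAB and RBM22 were called higher scaled and lower as deposited. Among the genes chosen by the naming rule these were HNRNPC (-0.091), HNRNPD (-0.076), HNRNPF (-0.22), HNRNPL (-0.23), HNRNPU (-0.074), RBM6 (-0.11), RBM8A (-0.074), RBM10 (-0.039), RBM25 (-0.016) and RBM39 (-0.23). Scaling by the upper quartile gave 31 higher and 5 lower; of the scalings added after seeing the data, an equal FPKM sum without ribosomal RNA genes gave 29 and 5, and a median of ratios over genes of at least 20 FPKM gave 29 and 6. A filter at a mean FPKM of 5 left 3 lower. Shares over all genes were counted only for the main fit, FPKM as deposited and the main edgeR fit on the most-read SE event. Member counts under the other settings, including the fits below, therefore have no background beside them. On the most-read SE event, tested in 47 members, edgeR gave 1 lower with either set of size factors and DESeq2 gave 20 higher and 1 lower. Leaving out each library in turn gave 29 to 31 higher and 3 to 6 lower; 3 lower were left without KDM4B replicate 1 and without vector replicate 1. In every such fit, 29 of the 32 rises and 3 of the 5 falls were called. RI events called went between 1 and 2, the second being an HNRNPU intron called without KDM4B replicate 4 (log2 odds ratio -0.21, adjusted p = 0.0441).

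Replicate numbers 1 and 2 occur in both groups, but same-numbered libraries did not deviate together (correlations -0.02 and 0.14 over 12148 genes), so the numbers show no pairing. With a replicate block, 30 members were higher and 5 lower; RBM3, RBM6 and RBM22 were no longer called, RBM45 was called lower (-0.17, adjusted p = 0.0413), and 0 RI events were called (HNRNPA2B1 -0.65, adjusted p = 0.0597). Of the settings tried for the single genes and events, 436 kept the call or the lack of one and 30 lost the call. Another 10 turned direction with a call in at least 1 of the fits compared, all 10 as deposited. Where neither fit was called, a change of sign was counted as kept. Among the genes that changed sign in this way were HNRNPF, HNRNPL and RBM39, at 0.023, 0.017 and 0.0070 scaled. With a median of ratios over genes of at least 20 FPKM they lay at -0.010, -0.016 and -0.026. The cause was not tested.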
